A study of Mus musculus with 6 samples.

Results

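Macrophage uptake, storage and export of lipid was followed through 10 genes, and each of these 10 was found by its symbol among the 23282 genes counted. They are the scavenger receptors Cd36 (NCBI gene 12491), Scarb1 (20778), Msr1 (20288), Marco (17167) and Olr1 (108078), the fatty acid carriers Fabp4 (11770) and Fabp5 (16592), the lipase Lpl (16956), the nuclear receptor Pparg (19016) and the cholesterol exporter Abca1 (11303). They were listed by name, with no threshold on their values. RNA was sequenced from mouse blood-forming cells of a mixed 129/Sv and C57BL/6 strain, in 9 libraries from 6 samples, to ask how the histone H3 lysine 4 methyltransferase Mll4 (Kmt2d) shapes their transcriptome. Levels are given as CPM, the reads of a gene scaled to the total count of its library, with no scaling by gene length, so levels are compared between libraries of 1 gene and not between genes.

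LSK cells are marrow cells without lineage markers that carry Sca1 and c-Kit, a fraction holding stem cells and early progenitors. They came from 2-month-old polyIC-treated littermates that all carried MxCre, with floxed Mll4 (1 library, labelled Mll4 deleted) or wild-type Mll4 (1 library), and about 50 picked cells were amplified by PCR for each library. MxCre is an interferon-inducible Cre that also acts outside the blood lineages. MLL-AF9, a fusion oncogene of acute leukaemia, allows marrow cells to keep growing in culture once a retrovirus has brought it in. MLL-AF9 cells with floxed Mll4 received a Cre retrovirus (2 libraries, labelled Mll4 deleted and called Mll4-deleted here) or an empty retrovirus (2 libraries, Mll4 intact) and were sorted for both fluorescent markers 5 days after infection. The protocol names marrow with MxCre, floxed or wild type, as the starting material of both of these groups. Of these groups only the Mll4-deleted one received the Cre retrovirus, so effects of that virus cannot be told apart from those of deletion. In a separate transformation, marrow without Mll4 received MLL-AF9 together with FOXO3, a transcription factor tied to stress resistance (2 libraries), or with an empty vector (1 library). Both of these groups lack Mll4, so no intact counterpart exists for them. All MLL-AF9 cells had grown for 14 days, and the sources used here do not say whether a group came from 1 culture or several.

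Macrophages take up oxidised and acetylated lipoproteins through scavenger receptors, which differ in structure but commonly bind polyanionic ligands. Lipoprotein lipase releases fatty acids from triglyceride-rich lipoproteins outside the cell, and fatty acid binding proteins shuttle them within it. PPARγ, the product of Pparg, is a nuclear receptor that binds fatty acid derivatives, pairs with a retinoid X receptor and induces Cd36 and Fabp4 in macrophages. Cholesterol leaves the cell through transporters such as Abca1, a target of the liver X receptors.

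Library totals ranged from 25895041 to 61950773 counts. Kmt2d, the targeted gene, stood at 95.6 and 73.7 CPM in the Mll4-deleted MLL-AF9 libraries and at 79.5 and 61.7 CPM in the intact ones. The LSK library labelled Mll4 deleted held more of it (13.9 CPM) than the one labelled wild type (1.88 CPM), which goes against the label. Reads were summed over the whole gene, and no source used here names the floxed exons, so Kmt2d levels cannot check the deletion. Directions given for Mll4 loss therefore follow the labels. Foxo3 stood at 1292 and 1309 CPM in the FOXO3 libraries and at 27.3 CPM with the empty vector. The FOXO3 libraries were far more alike (chi-square per degree of freedom 1.97) than the Mll4-deleted pair (191) or the intact pair (146). Since the labels name no separate cultures, p-values here speak of the spread among these libraries alone. In the FOXO3 pair that spread may be wholly technical. The Mll4-deleted and intact pairs each held 1 library with high Xist and 1 with high Ddx3y, and so cells of either sex. The 2 libraries of each of these pairs are thus not repeats of the same cells, though part of their spread may still be technical. The FOXO3 libraries and the empty-vector library had high Ddx3y (99.3, 98.5 and 92.2 CPM) and low Xist (0.998, 0.936 and 1.01 CPM). In LSK cells Ddx3y had 14.4 CPM in the library labelled Mll4 deleted and 0.827 CPM in the wild-type one. Xist had 2.05 and 3.65 CPM in the same order. The LSK libraries may thus differ in sex as well as in label, and the part of sex was not tested. The progenitor marker Kit had 101 CPM in the LSK library labelled Mll4 deleted, against 46.8 CPM in the wild-type one, and Ly6a, which encodes Sca1, had 28.2 and 80.2 CPM in the same order.

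In MLL-AF9 cells of the first transformation, labelled Mll4 deleted or intact, all 10 genes were detected in every library. The LSK libraries held no read of Cd36, Msr1, Marco, Fabp4, Pparg or Abca1, which allows up to 0.116 CPM in the library labelled Mll4 deleted and 0.113 CPM in the wild-type one (3 counts). FOXO3 libraries of the second transformation held no read of Marco and few of Cd36, Msr1, Fabp4 and Abca1. Scarb1 was the member with the least spread over the 7 MLL-AF9 libraries. It encodes the receptor that takes cholesterol esters from high-density lipoprotein, and its lowest and highest values were 87.2 and 212 CPM. Intervals and limits given here cover counting error only, since PCR copies a molecule many times over.

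**Figure D1:**
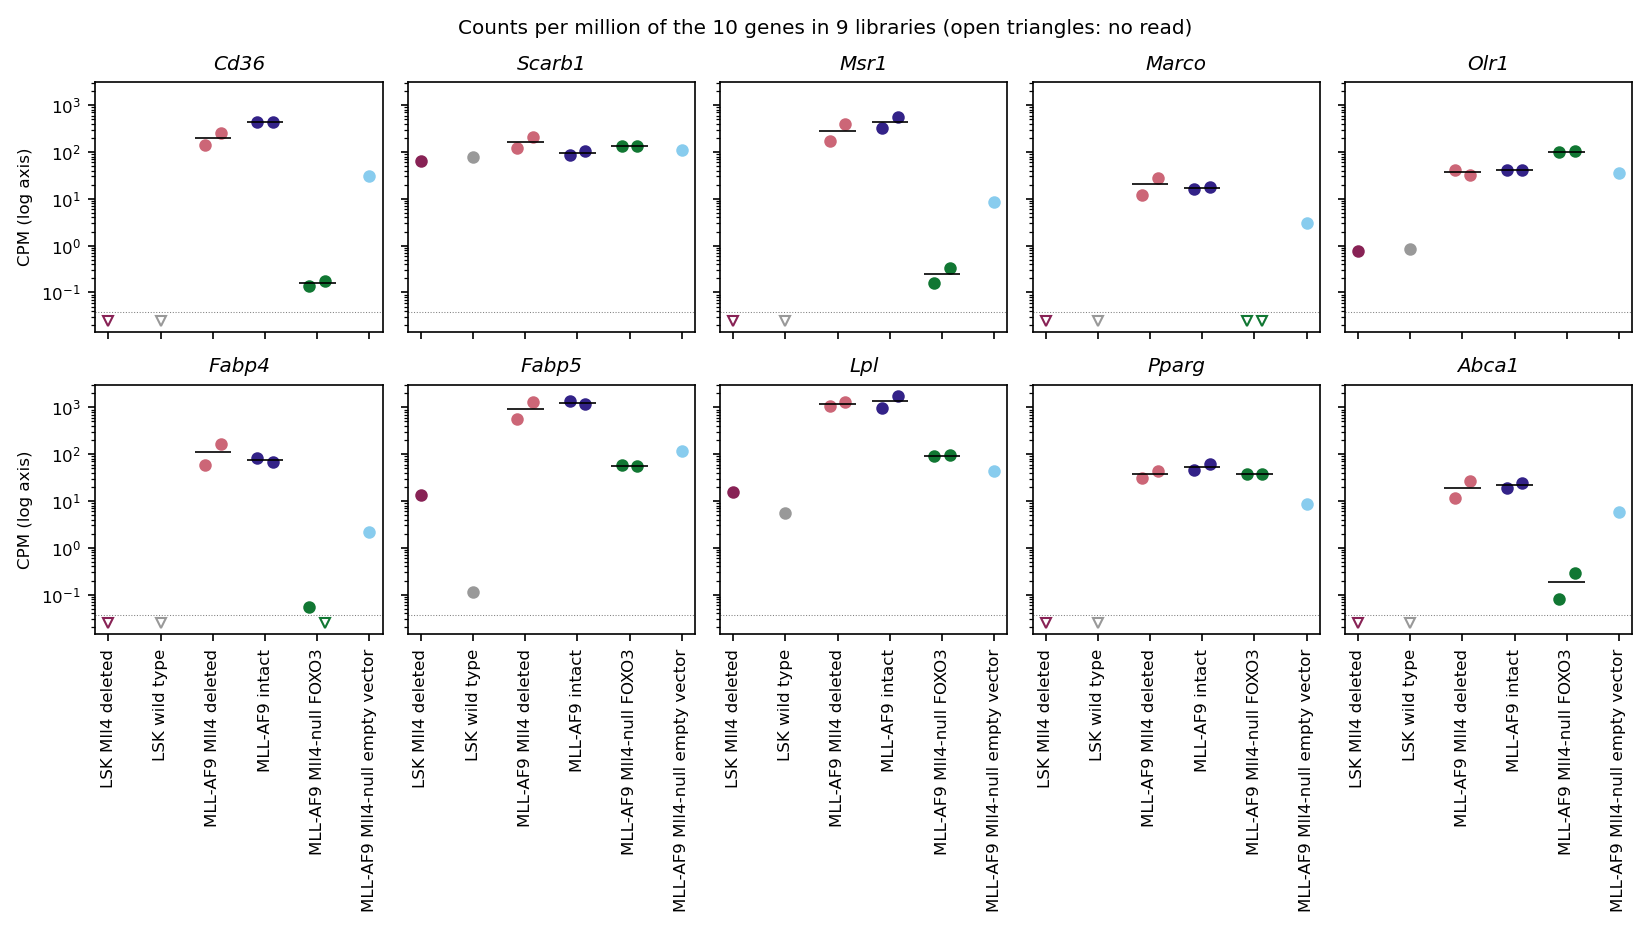
Level of each of the 10 genes in every library, in CPM on a log axis, with 1 panel a gene and the groups side by side. Points are libraries, short black lines are the means of a pair, and open triangles below the dotted line mark libraries with no read; Cd36, Msr1, Marco, Fabp4 and Abca1 stand highest in the 4 libraries labelled Mll4 deleted or intact and near or at 0 with FOXO3.

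RefSeq promoter sequences (GRCm38.p6) were at hand for 5 of the 10 genes, in 7 sequences of 300 bases that run from 250 bases before the start to 50 after it. The first 3 are of genes that were lower with FOXO3 and the last pair of genes that were higher, so that the members that moved together can be read side by side. Capitals mark matches, on either strand, to any of 6 motifs. These were the single element AGGTCA, its direct repeat with 1 base between (PPAR-RXR type) or 4 bases between (LXR-RXR type), and TGTTTAC (FOXO type). The last ones were GAGGAAGT, of the kind bound by the macrophage and neutrophil factor PU.1, and the TATA box, searched for as TATAAA. Every match to a repeat is also a match to the single element. The sequences are those of Cd36 (chr5:17835847-17836146, minus strand), Marco (chr1:120504975-120505274, minus strand), Abca1 (chr4:53159846-53160145, minus strand), Olr1 (chr6:129507116-129507415, minus strand) and the first of 3 Pparg starts (chr6:115360894-115361193, plus strand).
Cd36: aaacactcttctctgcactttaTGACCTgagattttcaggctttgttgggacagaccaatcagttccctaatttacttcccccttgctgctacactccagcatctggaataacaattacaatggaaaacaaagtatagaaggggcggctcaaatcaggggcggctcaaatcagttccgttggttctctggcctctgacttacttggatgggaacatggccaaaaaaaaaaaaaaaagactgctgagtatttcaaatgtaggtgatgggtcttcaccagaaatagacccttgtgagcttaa
Marco: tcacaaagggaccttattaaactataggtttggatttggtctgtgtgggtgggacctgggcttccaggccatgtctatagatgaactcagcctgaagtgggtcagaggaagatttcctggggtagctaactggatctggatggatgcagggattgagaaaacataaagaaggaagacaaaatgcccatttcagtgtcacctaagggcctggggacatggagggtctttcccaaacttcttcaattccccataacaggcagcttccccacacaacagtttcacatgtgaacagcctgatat
Abca1: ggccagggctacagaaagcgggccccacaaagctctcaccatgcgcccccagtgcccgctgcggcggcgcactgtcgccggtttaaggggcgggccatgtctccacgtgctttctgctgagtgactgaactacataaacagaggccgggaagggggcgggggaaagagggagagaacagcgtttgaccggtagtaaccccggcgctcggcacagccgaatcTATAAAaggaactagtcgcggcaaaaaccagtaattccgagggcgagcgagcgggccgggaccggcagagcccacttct
Olr1: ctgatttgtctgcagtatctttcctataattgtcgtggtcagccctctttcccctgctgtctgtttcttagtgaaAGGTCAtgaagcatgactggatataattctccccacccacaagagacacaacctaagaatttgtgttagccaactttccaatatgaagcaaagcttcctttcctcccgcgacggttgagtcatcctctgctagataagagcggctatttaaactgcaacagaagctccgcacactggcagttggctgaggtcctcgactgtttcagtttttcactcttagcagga
Pparg: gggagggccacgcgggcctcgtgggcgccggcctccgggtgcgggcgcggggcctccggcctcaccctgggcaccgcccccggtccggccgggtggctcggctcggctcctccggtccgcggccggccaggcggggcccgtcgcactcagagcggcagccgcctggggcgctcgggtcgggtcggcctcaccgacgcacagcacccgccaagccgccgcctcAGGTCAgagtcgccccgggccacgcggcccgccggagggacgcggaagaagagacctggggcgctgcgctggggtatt

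A single AGGTCA element lay 228 bases before the Cd36 start (read on the opposite strand, so it appears as TGACCT), 175 bases before the Olr1 start and 28 bases before the printed Pparg start. The second Pparg start, not printed, had the element 9 bases before it and a TATA box on the opposite strand 29 bases before it, and the third held no match. Abca1 carried a TATA box 29 bases before its start. The Marco promoter held none of the 6 motifs. Among 32851 mouse promoters of the same length, 16.3% held AGGTCA and 13.6% held TATAAA, while TGTTTAC was found in 3.65% and GAGGAAGT in 3.2%. The 13-base PPAR-RXR repeat was found in 0.0396% of promoters, the 16-base LXR-RXR repeat in 0.0152%, and neither in a member's promoter. Matches describe letters in these windows and not bound sites.

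Loss of Mll4 in MLL-AF9 cells was set against intact cells to ask which members differ in transformed marrow. Cd36, a class B scavenger receptor and fatty acid translocase, was the 1 member called, that is, with an adjusted p under 0.05 by edgeR. It stood at 139 and 258 CPM in the Mll4-deleted libraries and at 431 and 447 CPM in the intact ones. The 2 groups did not overlap, and the Mll4-deleted replicates lay further apart than the intact ones. Means were 198 ± 84.1 CPM in the Mll4-deleted libraries and 439 ± 10.9 CPM in the intact pair (SD, n = 2 each). The log2 fold change was −1.43 ± 0.30 (SE), 2.69-fold lower, after a further scaling between libraries (TMM) that the CPM do not carry. The adjusted p was 0.0341 (edgeR's quasi-likelihood test, Benjamini-Hochberg over 14997 genes). Of the 10 members, 1 was called lower and 0 higher, where 14.9% of all genes tested were called (6.94% lower and 7.97% higher). At an unadjusted p under 0.05 there were 3 members, against 33.9% of genes. The call rested on the spread shared over all 7 libraries: with these 4 libraries alone Cd36 had an adjusted p of 0.103 by edgeR and no member was called. Without intact replicate 1 or 2 its adjusted p was 0.0987 or 0.119 by edgeR, and without FOXO3 replicate 1 or 2 it was 0.0934 or 0.0931.

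The other scavenger receptors differed less in mean CPM between the groups than the replicates of the Mll4-deleted pair did from each other. Msr1, the founding class A receptor, had 172 and 397 CPM in the Mll4-deleted libraries and 319 and 553 CPM in the intact ones. These ranges overlap, and the log2 fold change of −0.92 ± 0.49 had an adjusted p of 0.249 by edgeR. Marco, a class A receptor that binds bacteria and particles, had 12.3 and 28.3 CPM in the Mll4-deleted libraries and 16.03 and 17.8 CPM in the intact ones. The Mll4-deleted values lay on both sides of the intact ones, so no direction can be read. Olr1, the lectin-like receptor for oxidised low-density lipoprotein, had 42.1 and 31.8 CPM in the Mll4-deleted libraries and 40.6 and 42.1 CPM in the intact ones (adjusted p = 0.12 by edgeR). Scarb1 had 119 and 212 CPM in the Mll4-deleted libraries and 87.2 and 106 CPM in the intact ones. Its groups did not overlap, yet the log2 fold change of 0.49 ± 0.29 had an adjusted p of 0.303 by edgeR.

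Among the carriers, Fabp4, the adipocyte and macrophage fatty acid binding protein, had 59.2 and 165 CPM in the Mll4-deleted libraries and 82.2 and 67.8 CPM in the intact ones. Fabp5, its epidermal-type relative, had 559.6 and 1298 CPM in the Mll4-deleted libraries and 1349.9 and 1153 CPM in the intact ones. Both pairs of groups overlap, and the adjusted p values by edgeR were 0.696 and 0.248. Fabp5 has a pseudogene in RefSeq, Fabp5l2, so reads may have been split between near-identical copies and its values are uncertain. Lpl had 1062 and 1317 CPM in the Mll4-deleted libraries and 964 and 1745 CPM in the intact ones (adjusted p = 0.348 by edgeR). Abca1 had 11.3 and 26.6 CPM in the Mll4-deleted libraries and 19.2 and 23.8 CPM in the intact ones (adjusted p = 0.540 by edgeR).

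Pparg stood at 31.5 and 43.5 CPM in the Mll4-deleted libraries and at 45.9 and 62.4 CPM in the intact ones. The 2 groups did not overlap, but the log2 fold change of −0.82 ± 0.25 missed the threshold, with an adjusted p of 0.0767 by edgeR. Non-overlap alone is common with 2 libraries a group: it held for 3 of the 10 members (Scarb1 higher, Cd36 and Pparg lower), where it held for 59.0% of all genes tested (43.4% higher and 15.6% lower). The median log2 fold change over the 10 members was −0.48, beside −0.03 over all genes tested.

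Within the Mll4-deleted pair, replicate 2 lay above replicate 1 for 9 of the 10 members, and at least 2-fold above it for 5 (Msr1, Marco, Fabp4, Fabp5 and Abca1). Of the 12422 genes whose mean reached 1 CPM, 50.2% were higher in replicate 2 and 3.08% at least 2-fold higher. Ratios of the 5 ran between 2.29 for Marco and 2.79 for Fabp4. Olr1 was the exception, at 0.754 times replicate 1. In the intact pair, replicate 2 was higher for 8 members, against 35.5% of genes, and for 0 of them by 2-fold, against 1.17% of genes. The summed level of 10 macrophage marker genes was also higher in replicate 2, at 720.1 and 1007 CPM in Mll4-deleted replicates 1 and 2, and at 867 and 1071 CPM in intact replicates 1 and 2. Adgre1 of that list ran the other way in the Mll4-deleted pair, at 418 and 316 CPM, while its other genes were higher in replicate 2. In the intact pair genes of the list moved in both directions. The part of that summed marker level, or of the sex of the cells, in the spread of the members was not tested.

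**Figure D2:**
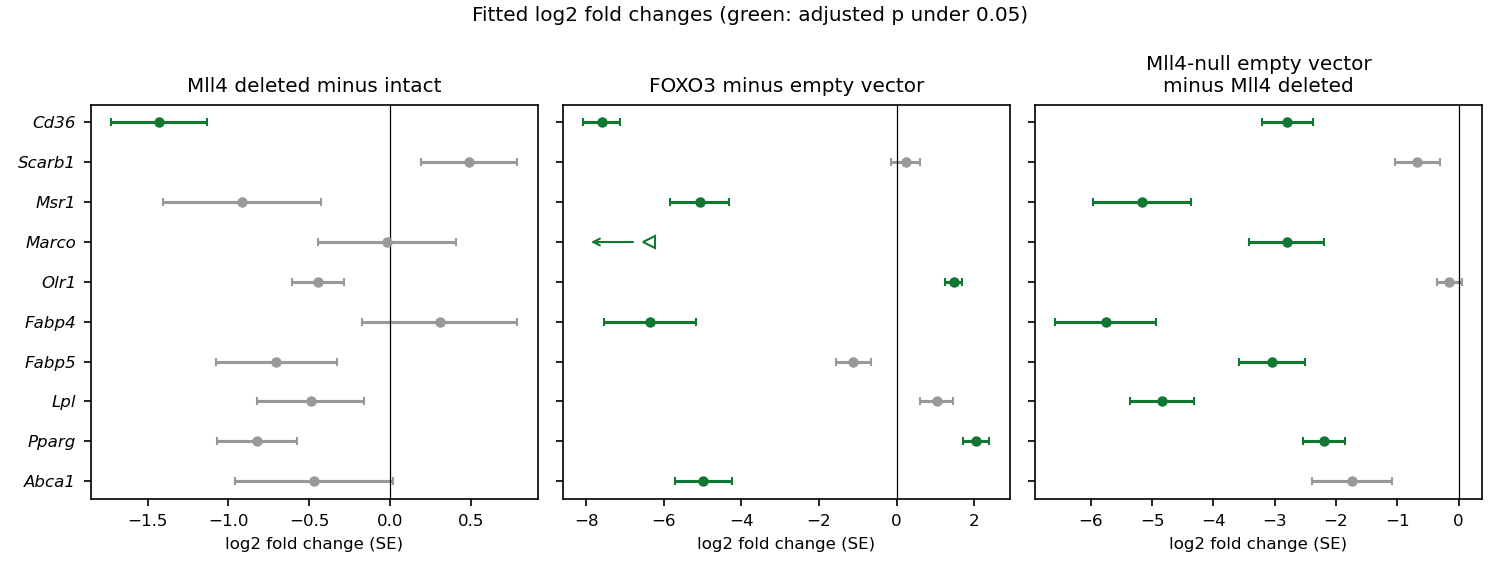
Log2 fold changes of the 10 genes in the 3 comparisons of MLL-AF9 cells, 1 panel each, with bars of 1 SE, in green where the adjusted p was under 0.05 and in grey elsewhere. Cd36 alone is called for Mll4 loss, 7 genes are called in each of the other comparisons, and Marco with FOXO3 is an open triangle with an arrow at the bound that 3 counts set.

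FOXO3 was set against the empty vector in MLL-AF9 cells that both lack Mll4. Cd36, Msr1, Marco, Fabp4 and Abca1 were lower with FOXO3, to the edge of detection, while Olr1 and Pparg were higher. In all, 7 of the 10 members were called, 2 higher and 5 lower, where 7.13% of all genes tested were called (2.2% higher and 4.93% lower). The empty vector had 1 library, which the fit takes to vary as the other groups do, and all 10 members stood outside the other group's values, as did 90.6% of all genes (45.3% higher and 45.3% lower).

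Cd36 had 0.135 and 0.178 CPM in the FOXO3 libraries, from 5 and 8 reads, and 30.3 CPM with the empty vector, from 1591 reads. Its log2 fold change was −7.60 ± 0.48 (adjusted p = 0.00203 by edgeR), the largest fall among the members with reads in both FOXO3 libraries. Msr1 had 0.162 and 0.334 CPM in the FOXO3 libraries and 8.42 CPM with the empty vector. Its log2 fold change was −5.08 ± 0.75 (adjusted p = 0.0189 by edgeR). Both libraries with FOXO3 lay far below the single library without it, with 6 reads in FOXO3 replicate 1 and 15 in replicate 2, against 442 with the empty vector. Marco had no read in either FOXO3 library and 161 reads, 3.07 CPM, with the empty vector. Set against 3 counts over the FOXO3 group, Marco was 83.8-fold lower with FOXO3 (adjusted p = 0.0169 by edgeR). The 95% exact binomial (Clopper-Pearson) interval, which also covers counting error with the empty vector, began at 67.3-fold.

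Fabp4 had 2 reads and 0 reads in the FOXO3 libraries and 115 reads, 2.19 CPM, with the empty vector. The empty-vector level was 89.7 times the FOXO3 level, with a 95% exact binomial (Clopper-Pearson) interval of 24.3 to 749.9 (adjusted p = 0.0352 by edgeR). Abca1 had 0.0809 and 0.290 CPM in the FOXO3 libraries, from 3 and 13 reads, and 5.96 CPM with the empty vector. Its log2 fold change was −4.98 ± 0.73 (adjusted p = 0.0183 by edgeR). In bulk RNA, fewer cells of a type and less RNA per cell cannot be told apart.

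Olr1 ran the other way. It had 99.2 and 103 CPM in the FOXO3 libraries and 35.2 CPM with the empty vector, a log2 fold change of 1.47 ± 0.21 (2.77-fold higher, adjusted p = 0.0177 by edgeR). In the first transformation the same receptor stood between 31.8 and 42.1 CPM, so the FOXO3 libraries alone held it near 100 CPM. Pparg had 37.3 and 37.0 CPM in the FOXO3 libraries and 8.63 CPM with the empty vector, a log2 fold change of 2.06 ± 0.34 (4.17-fold higher, adjusted p = 0.0250 by edgeR). Cd36 and Fabp4, known PPARγ targets, were lower in the libraries where Pparg was higher. Rxra, a retinoid X receptor that pairs with PPARγ and the liver X receptors, had 1.08 and 1.47 CPM with FOXO3 and 6.00 CPM with the empty vector (log2 fold change −2.27, adjusted p = 0.00498 by edgeR). Rxrb, another such receptor, chosen after its values were seen, had 88.8 and 91.5 CPM with FOXO3 and 81.5 CPM with the empty vector. It was not called. The part of either receptor in the levels of Cd36 and Fabp4 was not tested.

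Scarb1, Fabp5 and Lpl did not pass the test. Scarb1 had 133 CPM in both FOXO3 libraries and 109.5 CPM with the empty vector (adjusted p = 0.777 by edgeR). Fabp5 had 58.9 and 55.5 CPM in the FOXO3 libraries and 119.6 CPM with the empty vector (log2 fold change −1.11, adjusted p = 0.214 by edgeR). Lpl had 92.1 and 94.4 CPM in the FOXO3 libraries and 44.0 CPM with the empty vector (log2 fold change 1.04, adjusted p = 0.222 by edgeR). Over the 10 members the median log2 fold change was −3.05, beside −0.04 over all genes tested. Calls depended on counting the FOXO3 pair as 2 libraries: with the pair summed, Cd36 and Marco were called and the other 5 were not. Without FOXO3 replicate 1 or 2, Cd36 was the only member called, and without intact replicate 1 or 2, Cd36, Msr1, Olr1 and Pparg were called.

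The empty-vector library without Mll4 was also set against the earlier Mll4-deleted pair, both lacking Mll4 by label. The members were mostly lower in the empty-vector library: 7 of 10 were called lower and 0 higher, where 21.7% of all genes tested were called (12.2% lower and 9.54% higher). Lpl had 44.0 CPM with the empty vector, against 1062 and 1317 CPM in the Mll4-deleted libraries. Its log2 fold change was −4.84 ± 0.53 (adjusted p = 0.00711 by edgeR). Fabp4 had 2.19 CPM with the empty vector, against 59.2 and 165 CPM in the Mll4-deleted libraries. Its log2 fold change was −5.76 ± 0.82 (adjusted p = 0.0115 by edgeR). Msr1 was 35.8-fold lower with the empty vector, Fabp5 8.22-fold, Marco 6.98-fold, Cd36 6.93-fold and Pparg 4.59-fold, with adjusted p values by edgeR between 0.0125 and 0.0390. Scarb1, Olr1 and Abca1 were not called, with log2 fold changes of −0.67, −0.15 and −1.75. The median over the members was −2.80, beside 0.00 over all genes tested. The empty-vector library had high Ddx3y (92.2 CPM) and low Xist, while the Mll4-deleted pair held 1 library of either sex. The part of sex in these differences was not tested. Transformation, vector and genotype differ together here and cannot be told apart, and with the 3 compared libraries alone no member was called by edgeR (smallest adjusted p 0.0702 over all genes, 3299 genes at an unadjusted p under 0.05).

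Across the 4 MLL-AF9 groups the order of levels was not the same for all members. Pparg stood at 37.3 and 37.0 CPM with FOXO3, 8.63 CPM with the empty vector, 31.5 and 43.5 CPM in the Mll4-deleted libraries and 45.9 and 62.4 CPM in intact cells. The Mll4-deleted values enclose the FOXO3 values, so these groups do not differ beyond their spread, and the empty-vector library lies apart at the low end. Lpl was lowest with the empty vector, next with FOXO3, and higher in every library of the first transformation, where the groups overlap. Fabp5 was lowest with FOXO3, next with the empty vector, and again overlapped between the groups labelled Mll4 deleted and intact. Olr1 was highest with FOXO3, and its values in the other 5 libraries ran between 31.8 and 42.1 CPM.

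**Figure D3:**
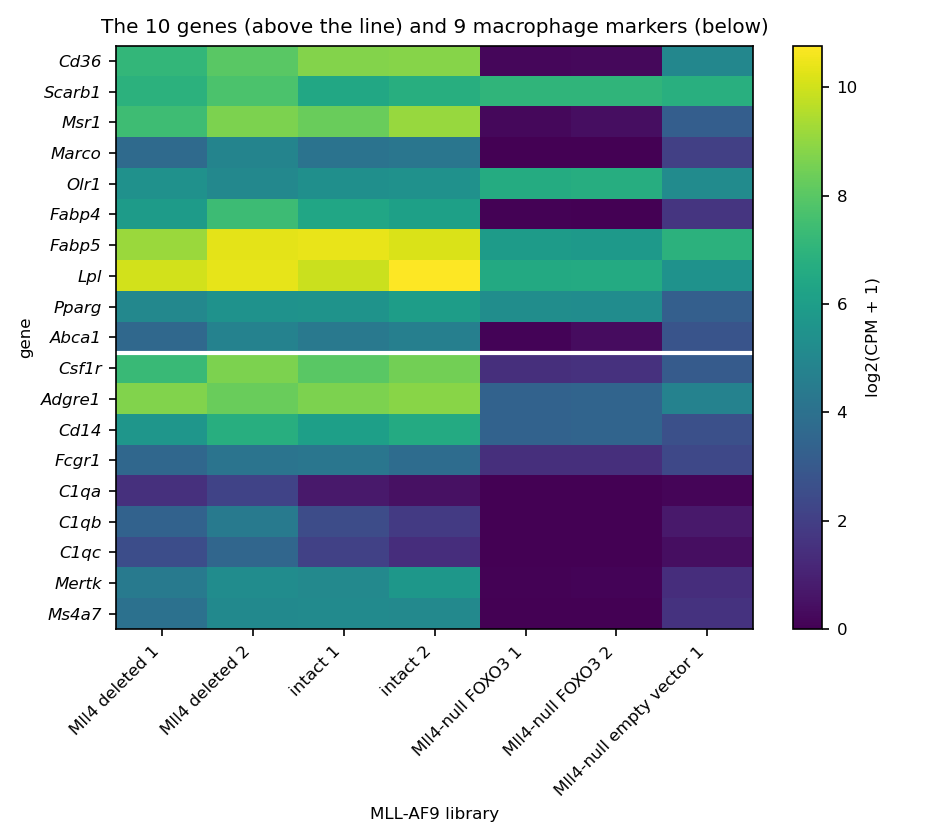
Colour map of log2(CPM + 1) in the 7 MLL-AF9 libraries (columns) for the 10 genes above the white line and 9 macrophage markers below it (rows), with brighter colours for higher levels. All 9 markers are darker in the FOXO3 and empty-vector libraries than in the other 4, while the colours of Scarb1 and Olr1 vary the least among the 10 genes.

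Markers of other cell types moved with some of these differences. The macrophage list of 10 genes, among them Csf1r, Adgre1, Cd14, Fcgr1, C1qa, C1qb, C1qc, Mertk and Ms4a7, summed to 26.2 and 27.8 CPM with FOXO3 and to 53.1 CPM with the empty vector. It summed to 720.1 and 1007 CPM in the Mll4-deleted pair and to 867 and 1071 CPM in the intact pair. Of its 10 genes, 4 were called lower with FOXO3 than with the empty vector (Adgre1, C1qb, Mertk and Ms4a7), where 4.93% of all genes tested were called lower. C1qa, C1qb and C1qc had no read in either FOXO3 library. Cd14 stood on the other side, at 9.33 and 9.98 CPM with FOXO3 and 5.10 CPM with the empty vector, and was not called (log2 fold change 0.87). All 10 were called lower in the empty-vector library than in the Mll4-deleted pair, where 12.2% of all genes were called lower. For Mll4 loss 0 of 10 were called, where 14.9% of all genes tested were called. C1qa, C1qb and C1qc were higher in both Mll4-deleted libraries than in both intact ones (log2 fold changes 2.11, 1.76 and 1.43). The other 7 markers had negative log2 fold changes. In the FOXO3 comparison Cd36, Msr1, Marco, Fabp4 and Abca1 moved in the direction of Adgre1, C1qb, Mertk and Ms4a7, and Olr1 and Pparg in the other. The part of macrophage content in any of these results was not tested. Fabp4, Lpl and Pparg are also known from adipocytes, and a list of 8 adipocyte markers summed to between 0.485 and 2.32 CPM over the 7 MLL-AF9 libraries. In LSK cells 9 of the 10 macrophage markers had no read in either library.

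LSK cells labelled Mll4 deleted were set against wild-type LSK cells with 1 library each, so no test was possible. Of the 10 members, 3 reached 10 CPM in either library. Fabp5 had 350 reads, 13.5 CPM, in the library labelled Mll4 deleted and 3 reads, 0.113 CPM, in the wild-type one. The level labelled Mll4 deleted was thus 119.8-fold higher, with a 95% exact binomial (Clopper-Pearson) interval of 40.7 to 584. Lpl had 15.3 CPM in the library labelled Mll4 deleted and 5.53 CPM in the wild-type one, 2.77-fold higher (interval 2.28 to 3.37). Scarb1 had 63.2 CPM in the library labelled Mll4 deleted and 77.4 CPM in the wild-type one, a ratio of 0.817 (interval 0.765 to 0.872). Olr1 had 20 reads in the library labelled Mll4 deleted, against 23 in the wild-type one, a ratio of 0.893 whose interval, 0.465 to 1.70, covers no difference. Fabp5 was the 1 member past 4-fold. Among 7433 genes of at least 10 CPM in either library, 42.2% differed 4-fold or more, 17.7% higher and 24.5% lower, so a change of that size is common between these amplified libraries.

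The wider pathway was followed through 57 further genes in 5 lists, of which 53 could be tested in MLL-AF9 cells. With Mll4 loss, 2 were called higher and 7 lower, against 7.97% and 6.94% of all genes. Ch25h, which makes 25-hydroxycholesterol, had 10.8 and 18.1 CPM in the Mll4-deleted libraries and 72.2 and 126 CPM in the intact ones, a log2 fold change of −3.08 (adjusted p = 0.0186 by edgeR). Mgll, the monoacylglycerol lipase, had 72.7 and 93.8 CPM in the Mll4-deleted libraries and 253 and 248 CPM in the intact ones, a log2 fold change of −1.87 (adjusted p = 0.00742 by edgeR). Rxra had 31.3 and 34.0 CPM in the Mll4-deleted libraries and 67.0 and 66.9 CPM in the intact ones (log2 fold change −1.32, adjusted p = 0.0111 by edgeR). In none of these 3 did the groups overlap. Colec12, a scavenger receptor with a collectin domain, was lower too (log2 fold change −1.90), as were Dgat2, Lipa and Soat1, of triglyceride synthesis, lysosomal lipid hydrolysis and cholesterol ester storage. The 2 higher genes were Angptl4, an inhibitor of lipoprotein lipase (log2 fold change 1.05), and Srebf1, the lipogenic transcription factor (0.68). Calls among the 53 numbered 0 with the 4 compared libraries alone by edgeR (3498 of all genes at an unadjusted p under 0.05), 17 without Mll4-deleted replicate 2, and 3 (Ch25h, Mgll and Rxra) when either FOXO3 library was left out or the pair was summed.

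By list, the genes called lower in the Mll4-deleted libraries were 1 of 14 tested scavenger and lipoprotein receptors, 2 of 15 genes of fatty acid uptake and storage, 1 of 7 lipase partners and lysosomal genes, 1 of 9 nuclear receptors and cofactors and 2 of 8 genes of cholesterol efflux and storage. Median log2 fold changes of these lists ran between −0.68 and −0.23, beside −0.03 over all genes. Cd68, the lysosomal scavenger receptor, had 214 and 456 CPM in the Mll4-deleted libraries and 674 and 992 CPM in the intact ones, and its adjusted p of 0.0535 by edgeR missed the threshold. Cd68 lies outside the rule for named genes and was chosen after its values were seen.

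With FOXO3, 2 of the 53 genes were called higher and 6 lower, against 2.2% and 4.93% of all genes. Megf10, an engulfment receptor, had 13.2 and 14.5 CPM in the FOXO3 libraries and 0.438 CPM with the empty vector, a log2 fold change of 4.92 (adjusted p = 0.0104 by edgeR). Scarb2, a lysosomal relative of Cd36, had 79.6 and 81.3 CPM in the FOXO3 libraries and 39.6 CPM with the empty vector, a log2 fold change of 0.97 (adjusted p = 0.0256 by edgeR). Abcg1, which exports cholesterol to high-density lipoprotein as a partner of Abca1, had 8.17 and 8.78 CPM in the FOXO3 libraries and 35.2 CPM with the empty vector. Its log2 fold change was −2.10 (adjusted p = 0.00343 by edgeR), so both exporters were lower with FOXO3. The other lower genes were Rxra, the scavenger receptors Scarf2 (log2 fold change −3.45) and Stab1 (−2.52), Apoc2, a cofactor of lipoprotein lipase, and Ch25h. Calls among the 53 numbered 46 with the 3 compared libraries alone, 15 without Mll4-deleted replicate 1, 5 when either intact library was left out, and 2 (Abcg1 and Rxra) when either FOXO3 library was left out or the pair was summed. None of the 15 genes of fatty acid uptake, activation and storage was called, although 3 had an unadjusted p under 0.05 by edgeR, as did 23.1% of all genes.

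**Figure D4:**
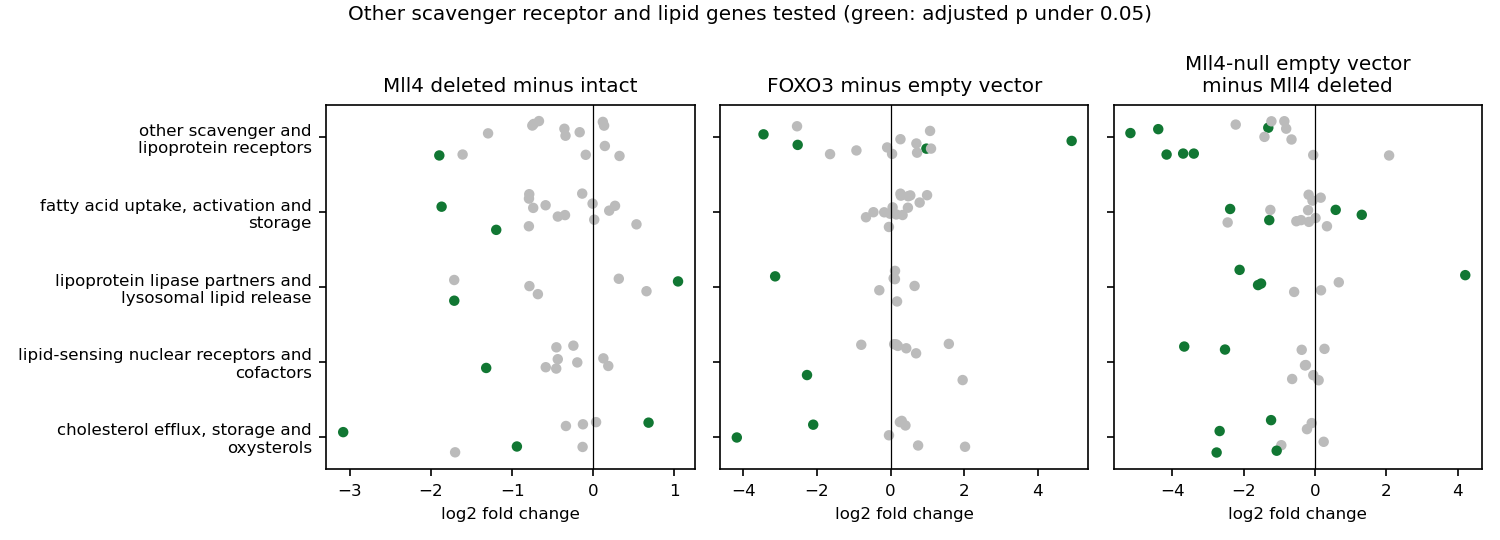
Log2 fold changes of the 53 tested genes of the wider lipid pathway, 1 point a gene and 1 row a list (spread in height within a row for legibility), in the 3 comparisons of MLL-AF9 cells, green where the adjusted p was under 0.05 and grey elsewhere. Calls number 2 higher and 7 lower for Mll4 loss, 2 higher and 6 lower for FOXO3, and 3 higher and 17 lower for the empty-vector library against the Mll4-deleted pair.

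In the empty-vector library 3 of the 53 genes were called higher and 17 lower than in the Mll4-deleted pair, against 9.54% and 12.2% of all genes. With the 3 compared libraries alone, 0 of the 53 were called by edgeR. Acsl3 and Acsl5, acyl-CoA synthetases, and Apoc2 were the higher ones, with log2 fold changes of 1.31, 0.58 and 4.22. Abcg1 had 35.2 CPM with the empty vector and 206 and 244 CPM in the Mll4-deleted libraries, a log2 fold change of −2.76 (adjusted p = 0.00364 by edgeR). Plin2, which coats lipid droplets, had 146 CPM with the empty vector and 670.0 and 765 CPM in the Mll4-deleted libraries, a log2 fold change of −2.38 (adjusted p = 0.0103 by edgeR). Rxra and Scarb2 followed, with log2 fold changes of −2.52 and −1.31. Of the tested receptors 6 of 14 were called lower, and of the genes of cholesterol efflux and storage 4 of 8.

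In LSK cells 28 of the 57 genes reached 10 CPM in either library, and 6 were at least 4-fold higher and 10 at least 4-fold lower in the library labelled Mll4 deleted. Plin2 had 141 CPM in the library labelled Mll4 deleted and 6.02 CPM in the wild-type one, 23.5-fold higher (95% exact binomial interval 20.1 to 27.7). The higher genes also included the fatty acid transporter Slc27a4, Dgat2, the hormone-sensitive lipase Lipe and the lipase maturation factor Lmf1. Rxra had no read in the library labelled Mll4 deleted, against 415 reads in the wild-type one, 134.7-fold lower when set against 3 counts. The other lower genes were Scarf1, Cpt1a, Angptl4, Apoe, Lipa, Npc2, Rxrb, Nceh1 and Mylip. These are values of 2 libraries, in a setting where 42.2% of genes passed the same fold.

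For each member the gene with the nearest profile was sought among 9276 genes, over the 7 MLL-AF9 libraries, by the root mean square difference of centred log2(CPM + 1) values. The nearest was Spp1 for Cd36 (0.25), which had 13.8 and 13.5 CPM with FOXO3, 345 CPM with the empty vector, 2162 and 3321 CPM in the Mll4-deleted libraries and 4226 and 7597 CPM in the intact ones. Other nearest genes were Myof for Msr1 (0.42), Smox for Marco (0.14), Olfm1 for Fabp4 (0.29), Rab11fip5 for Fabp5 (0.19) and Sestd1 for Abca1 (0.26). Lpl was nearest to Dab2 (0.21), Scarb1 to Slc12a9 (0.12), Olr1 to Zfp110 (0.16) and Pparg to Cdc42bpb (0.15). Among the members themselves the closest profiles were those of Marco and Abca1, at 0.29. These distances describe 7 libraries in 4 groups and share their depth and transformation.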

How the data were processed

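RNA was sequenced from 2 LSK and 7 MLL-AF9 libraries of mouse cells. The deposited files hold raw counts, whole reads per NCBI gene number for 23282 genes, with a file for each library. TopHat2 2.0.11, Bowtie 0.12.8 and the build mm9 are named in the submitters' processing notes. How reads were counted, with which annotation and whether by strand, is not given in the sources used here. Overlapping genes and near-identical copies may therefore share reads. Symbols came from the RefSeq table of GRCm38.p6 (23185 gene numbers matched, 97 did not), used for names and promoter sequences only.

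CPM are counts over the library total, in Python 3.11.15. The 4 MLL-AF9 groups entered 1 model. It was fitted by edgeR 4.0.16 (R 4.3.3) after TMM scaling and the default filter on expression, which left 14997 genes, and contrasts were tested by quasi-likelihood. P-values were adjusted by Benjamini-Hochberg over all genes, with a threshold of 0.05. Errors after ± are SD for CPM and SE for log2 fold changes. TMM fold changes differ from CPM ratios, most for Mll4 loss. There the TMM factors were 1.03 and 1.02 in the Mll4-deleted libraries and 0.889 and 0.798 in the intact ones. Fitted fold changes for Mll4 loss therefore lie lower than the ratios of the printed CPM. Overlap of groups was judged on CPM without TMM. LSK ratios carry 95% exact binomial (Clopper-Pearson) intervals and no test. A count of 0 was limited at 3 counts. The code was tested on simulated data. The comparisons share libraries: the Mll4-deleted pair and the empty-vector library each enter 2 of the 3.

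Members, gene lists and tests were chosen with earlier results of these data known. Named were the 10 members, Kmt2d and Foxo3, in each comparison the 4 called genes of the wider list with the smallest p in each direction, in LSK cells the wider-list genes of at least 10 CPM and 4-fold difference, and the gene nearest to each member. Where few further genes of a list were called they are named without values, chosen after their values were seen. Marker lists for macrophages, dendritic cells, neutrophils, adipocytes, endothelium, megakaryocytes, erythroid cells, stem and progenitor cells, B cells and T cells were summed per library. Alternatives were other scalings and filters, robust estimation, DESeq2 1.42.0, the compared libraries alone, the FOXO3 pair summed, the replicate number as a block and each library left out. No lane is given per library, so no values within lanes could be had. Some genes that these rules take are not reported here.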

Additional observations from a re-analysis of the deposited data

Results flagged for a closer look

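The search covered the 10 members and the 28 wider-list genes taken by the naming rule, where both LSK libraries had reads. For 8 of these genes the LSK library labelled Mll4 deleted lay on 1 side of the wild-type one, with a 95% interval that excluded no difference, and both Mll4-deleted MLL-AF9 libraries lay on the other side of both intact ones. The difference between the 2 cell types was not tested, since LSK cells had 1 library a genotype and another protocol. The LSK directions follow labels that Kmt2d, which encodes Mll4, goes against: it had 13.9 CPM in the LSK library labelled Mll4 deleted, against 1.88 CPM in the wild-type one. With those 2 labels turned round, the 8 genes would point the same way in both cell types. Genes outside that search can meet the same description: Cd68 had 50 reads in LSK cells labelled Mll4 deleted, against 0 in wild-type LSK cells, while both Mll4-deleted MLL-AF9 libraries lay below both intact ones.

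Scarb1, the only member among them, had a log2 ratio of −0.29 in LSK cells and a log2 fold change of 0.49 ± 0.29 (SE) in MLL-AF9 cells. The genes lower in LSK cells and with positive values in MLL-AF9 cells were Angptl4 (−9.11, from 1 read, against 1.05), Acsl3 (−2.24 against 0.54), Acsl5 (−1.55 against 0.20), Apoe (−2.07 against 0.66) and Rxrb (−2.76 against 0.19). Those higher in LSK cells and with negative values in MLL-AF9 cells were Plin2 (4.55 against −0.74) and Dgat2 (6.75 against −1.20). By edgeR, with p-values adjusted over all genes, Angptl4 (adjusted p = 0.0207) and Dgat2 (adjusted p = 0.0422) were called in MLL-AF9 cells and the other 6 were not. Dgat2 rested on 3 reads in the wild-type LSK library, so its 95% exact binomial interval ran between 5.19 and 9.03.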

How the results depend on the processing

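For Mll4 loss, 1 member was called as reported, 2 with DESeq2 (Cd36 and Pparg), 3 with the replicate number as a block (Cd36, Msr1 and Pparg), 0 with the compared libraries alone by edgeR (3498 genes at an unadjusted p under 0.05), 0 with the FOXO3 pair summed, and 0 to 4 when 1 library was left out. Without Mll4-deleted replicate 1 the 4 were Cd36, Olr1, Scarb1 and Fabp4, and without replicate 2 the 2 were Cd36 and Fabp5. Wider-list calls numbered 9 as reported, 17 with DESeq2, 14 with the replicate block, 0 with the compared libraries alone, 3 with the FOXO3 pair summed, and 3 to 17 with 1 library left out. Same-numbered libraries of the 2 groups deviated together with a correlation of 0.27 over 12422 genes, which with 2 pairs does not show pairing. They differed in sex: Xist had 771 CPM in Mll4-deleted replicate 1 and 1.08 CPM in intact replicate 1. In replicate 2 the order was reversed, at 2.21 and 687 CPM. The block by number thus joins libraries of different sex. The empty vector carries no number, so no other comparison could be blocked.

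For FOXO3, 7 members were called as reported, 10 with the compared libraries alone, 2 with the pair summed and 1 to 8 with 1 library left out. Wider-list calls numbered 8 as reported, 5 with a mean of at least 5 CPM, 14 with DESeq2, 46 with the compared libraries alone, 2 with the pair summed and 2 to 15 with 1 library left out. For the empty-vector library against the Mll4-deleted pair, members called were 7 and wider-list genes 20, both 0 with the compared libraries alone, and 6 to 9 and 15 to 24 with 1 library left out.

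Signs turned for members that were not called. Marco with Mll4 loss (−0.02) was 0.0025 under upper quartile scaling, 0.26 under library totals, 0.046 with no filter, 0.041 with the compared libraries alone, 0.051 with the pair summed, and −0.74 to 0.53 with 1 library left out. With 1 library left out, Abca1 ran between −1.21 and 0.095, Fabp4 between −0.62 and 0.94 and Lpl between −0.91 and 0.10 for Mll4 loss, and Olr1 between −0.33 and 0.017 for the empty vector against the Mll4-deleted pair (0.017 without Mll4-deleted replicate 1). The causes were not tested. Scaling by library totals moved the median of all genes for Mll4 loss to 0.24, from −0.03, with 2940 genes higher and 600 lower against 1196 and 1041 as reported. Over all genes, calls for Mll4 loss numbered 2237 as reported, 3709 with DESeq2, 3540 under library totals, 312 with the pair summed and 0 with the compared libraries alone; for FOXO3 they numbered 1069, 2183 with DESeq2, 178 with the pair summed and 9710 with the compared libraries alone. The LSK ratios of the 4 members with reads kept their direction under both other scalings. Depth limits the FOXO3 values of Cd36, Msr1, Marco, Fabp4 and Abca1, which rest on 0 to 15 reads a library.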

Other observations

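Summed levels of markers of other blood cells are given here as values, with no test of the lists. Dendritic cell markers summed to 16.7 and 17.6 CPM with FOXO3, 28.1 CPM with the empty vector, 284 and 487 CPM in the Mll4-deleted libraries and 706 and 601 CPM in the intact ones. Of the 8 dendritic cell markers, 1 was called lower with Mll4 loss by edgeR and 0 higher, against 6.94% and 7.97% of all genes. Their median log2 fold change was 0.21, beside −0.03 over all genes. In the same comparison 2 of 6 megakaryocyte and 2 of 7 tested endothelial markers were called lower, and 0 of either list higher. Megakaryocyte markers summed to 28.2 and 28.1 CPM with FOXO3, 176 CPM with the empty vector, 374 and 538 CPM in the Mll4-deleted libraries and 595 and 377 CPM in the intact ones. Neutrophil markers summed to 2354 and 2309 CPM with FOXO3, 5277 CPM with the empty vector, 6548 and 7166 CPM in the Mll4-deleted libraries and 5771 and 2387 CPM in the intact ones, so the empty-vector sum lay within the range of the first transformation. Erythroid markers summed to 2.83 and 2.63 CPM with FOXO3, 60.5 CPM with the empty vector and 4.41 to 29.96 CPM in the first transformation. Endothelial markers summed to 71.5 to 444 CPM over the MLL-AF9 libraries, stem and progenitor markers to 273 to 512 CPM, and B cell and T cell markers to at most 0.452 and 1.64 CPM.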
